A study of Mus musculus with 6 samples.

Results

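The genes described here encode the aminoacyl-tRNA synthetases, the enzymes that join each amino acid to its tRNA, together with the scaffold proteins that hold several of them in a complex. Members were chosen by gene symbol from a list of 39, made up of 20 cytosolic synthetases, 16 mitochondrial synthetases and 3 scaffold proteins. All 39 symbols were found among the 24346 symbols of the gene expression tables, and all 39 had a mean level of at least 1 FPKM (fragments per kilobase of transcript, scaled to the mapped fragments of the sample), the minimum for testing.

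RNA sequencing was performed on the mouse colorectal tumor line CT26 carrying retrovirally transduced mouse MR1 (CT26.mMR1, parental cells) and on M8, a mutant obtained from it with the chemical mutagen N-ethyl-N-nitrosourea (ENU), with 3 samples of each. MR1 is the molecule that presents small metabolites to mucosal-associated invariant T cells, and both lines carry the MR1 transgene. M8 came from a search for tumor cells with altered activity toward such T cells. It is 1 clone, grown by limiting dilution and picked on surface MR1, so the effects of mutagenesis, cloning and that choice cannot be told apart. The sample titles mark both lines with cl9 (CT26_cl9 and CT26_cl9_M8). Whether this means that the parental cells are also a clone is not given in the sources used here. No dose, time point or cell treatment other than the mutagen separated the lines.

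The labels gave colon as the tissue. Of 8 colon epithelial markers, Epcam, Cdh1, Krt19 and Cdx2 were listed at 0 in all 6 samples, Krt8 and Vil1 did not pass 0.12 FPKM, and only Krt18 (24.5 to 38.4 FPKM) and Krt20 (10.8 to 19.8 FPKM) were expressed. The mesenchymal genes Vim (1751 to 2137 FPKM) and Col1a2 (456 to 505 FPKM) were high in both lines. The leukocyte and endothelial markers did not pass 0.48 FPKM apart from Cd68, which ran from 3.77 to 4.90 FPKM in parental samples and from 1.39 to 2.46 in M8. Krt20 and Cd68 fell in M8 (adjusted p = 0.0044 and 0.0020), and of 6 mesenchymal markers 1 rose (Pdgfrb) and 2 fell (Pdgfra and Dcn), and the part of these genes in the results was not tested. Summed FPKM ranged from 593630 to 630260 per sample. The depth of M8 libraries relative to the first parental library, read from the smallest steps of 1109 low genes, was 0.772 to 0.875, against 0.948 to 1.07 in parental libraries, and the part of depth was not tested either.

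Each amino acid has its own synthetase. Cytosolic enzymes charge tRNAs for the ribosomes of the cytosol, while a separate nuclear-encoded set, whose symbols end in 2, serves the ribosomes of mitochondria. The synthetases for glycine (Gars) and lysine (Kars) are among the exceptions, since for each a single gene supplies both compartments. Eprs joins the glutamate and proline enzymes in one protein. In the cytosol a group of synthetases assembles with Aimp1, Aimp2 and Eef1e1 into the multisynthetase complex, and the other enzymes act outside it. Uncharged tRNA is sensed by the kinase Gcn2 (Eif2ak4), which through eIF2 raises translation of the transcription factor Atf4, and many cytosolic synthetase genes are listed among Atf4 targets.

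Because Atf4 binds with C/EBP proteins to the response element with the core TGATGNAA, the promoters of the members were searched for this core on both strands. RefSeq promoters (GRCm38.p6, 250 bases before to 50 after an annotated start, of which a gene may have several) were given for 30 members, and a gene was counted where any of its promoters held the core. This was so for 5 of 13 cytosolic genes (38.5%), 0 of 14 mitochondrial and 0 of 3 scaffold genes, against 1219 of the 27025 genes in the whole table (4.51%) and 209 of the 8167 tested here (2.56%). The form TGATGCAA was found for 4 of the 13 cytosolic genes and for 59 of the 8167 (0.72%). The 5 promoters with a match are shown 5′ to 3′ from 250 bases before the start to 20 after it, with the matches in capitals (TTGCATCA and TTTCATCA are matches read on the other strand), since they include the cytosolic gene that changed most in M8. A match is a stretch of letters and not a measured binding site, and a promoter with no match in this window may hold one elsewhere.
Aars (chr8:111033592-111033861, plus strand): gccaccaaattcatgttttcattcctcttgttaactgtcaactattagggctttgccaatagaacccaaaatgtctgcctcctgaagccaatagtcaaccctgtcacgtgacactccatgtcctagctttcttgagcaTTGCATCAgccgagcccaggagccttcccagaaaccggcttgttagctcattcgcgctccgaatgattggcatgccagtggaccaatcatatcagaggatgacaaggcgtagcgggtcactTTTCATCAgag
Gars (chr6:55037751-55038020, plus strand): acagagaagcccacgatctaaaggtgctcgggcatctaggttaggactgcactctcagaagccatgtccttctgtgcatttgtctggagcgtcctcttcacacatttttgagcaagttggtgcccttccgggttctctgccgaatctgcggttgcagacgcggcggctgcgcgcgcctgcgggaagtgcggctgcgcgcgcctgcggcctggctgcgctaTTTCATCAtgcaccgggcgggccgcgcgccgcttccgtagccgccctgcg
Iars (chr13:49681880-49682149, plus strand): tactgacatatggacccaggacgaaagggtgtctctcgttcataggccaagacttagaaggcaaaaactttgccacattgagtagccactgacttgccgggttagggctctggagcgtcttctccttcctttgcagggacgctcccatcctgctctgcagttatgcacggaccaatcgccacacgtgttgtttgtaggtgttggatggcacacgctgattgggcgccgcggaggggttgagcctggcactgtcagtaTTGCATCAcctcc
Tars (chr15:11399639-11399908, minus strand): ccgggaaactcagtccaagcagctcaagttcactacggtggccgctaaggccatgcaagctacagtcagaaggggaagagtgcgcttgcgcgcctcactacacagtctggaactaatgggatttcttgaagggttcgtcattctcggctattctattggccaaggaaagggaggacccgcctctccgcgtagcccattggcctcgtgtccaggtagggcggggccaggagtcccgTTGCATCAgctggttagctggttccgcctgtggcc
Yars (chr4:129189653-129189922, plus strand): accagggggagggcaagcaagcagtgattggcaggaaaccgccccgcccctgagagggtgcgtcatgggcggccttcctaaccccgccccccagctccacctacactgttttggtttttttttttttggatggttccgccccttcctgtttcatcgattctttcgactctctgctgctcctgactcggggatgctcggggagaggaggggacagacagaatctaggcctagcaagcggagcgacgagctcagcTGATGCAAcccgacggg

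For Gars, Iars and Tars the start used is the first base of the RefSeq gene, but for Yars it lies 169 bases and for Aars 6064 bases inside the annotated gene, so the Aars window surrounds an internal start. The Tars match began 15 bases before the start, and the Gars match began 30 bases before it. In Aars one match lay 112 bases before this internal start and the other began at base 10 counted from it, while those of Iars and Yars began at bases 8 and 4 counted from their starts. The levels of these 5 genes all rose in M8, by log2 fold changes between 0.23 (Yars) and 0.47 (Tars). Of the 8 cytosolic genes whose promoter held no match, Eprs, Farsa, Farsb, Kars, Mars and Sars rose by 0.17 to 0.28, and Dars and Qars did not pass the test. The other 7 cytosolic genes (Cars, Hars, Lars, Nars, Rars, Vars and Wars) had no promoter in the table used.

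The members covered a wide range of levels in parental cells. On the FPKM scale, which is per transcript length, Lars2, the mitochondrial leucyl enzyme, stood highest with 541 ± 50.6 (SD, n = 3), followed by Nars (312 ± 2.38), Gars (257 ± 7.83) and Aars (208 ± 3.33), the cytosolic enzymes for asparagine, glycine and alanine. Lars2 lies on chromosome 9 (chr9:123366927-123462675, GRCm38.p6) and overlaps a long noncoding RNA gene, Gm46137, and how reads were assigned between them is not given in the sources used here. The lowest levels were those of the mitochondrial enzymes Nars2 (2.38 ± 0.246), Ears2 (2.28 ± 0.403) and Pars2 (1.84 ± 0.144). Of the 38 neighbouring pairs in the order of parental levels, 18 did not overlap over the 3 samples. Those that did overlap included Lars with Sars, Wars with Rars, and the run from Farsb through Dars, Eef1e1, Qars, Iars2 and Farsa to Yars. The lowest cytosolic mean was that of Yars (36.6 ± 1.15 FPKM), and of the mitochondrial enzymes only Lars2 and Iars2 (39.2 ± 0.350 FPKM) stood above it.

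The question put to the comparison was which synthetase genes differ in expression between M8 and parental cells. Expression of the cytosolic set rose almost throughout, whereas most of the mitochondrial set did not pass the test. Of 20 cytosolic synthetases, 18 rose and 0 fell at an adjusted p below 0.1 by limma, with a median log2 fold change of 0.21, or a median ratio of 1.16. Under upper-quartile scaling 12 rose and 1 fell, with a median of 0.13, and under quantile normalization 13 rose, with a median of 0.12. In bulk RNA a lower level in each cell and fewer cells expressing a gene cannot be told apart. Among all 10597 genes tested, 2250 (21.2%) rose, 1745 (16.5%) fell, and the median log2 fold change was 0.0069. The 3 M8 values were each higher than the 3 parental values for 19 of the 20 cytosolic genes, and for 24.8% of all genes tested. The counts over all genes depended on scaling, with 1157 higher and 3239 lower under upper-quartile scaling and 1652 higher and 2249 lower when samples were rescaled to a common total (TPM).

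**Figure D1:**
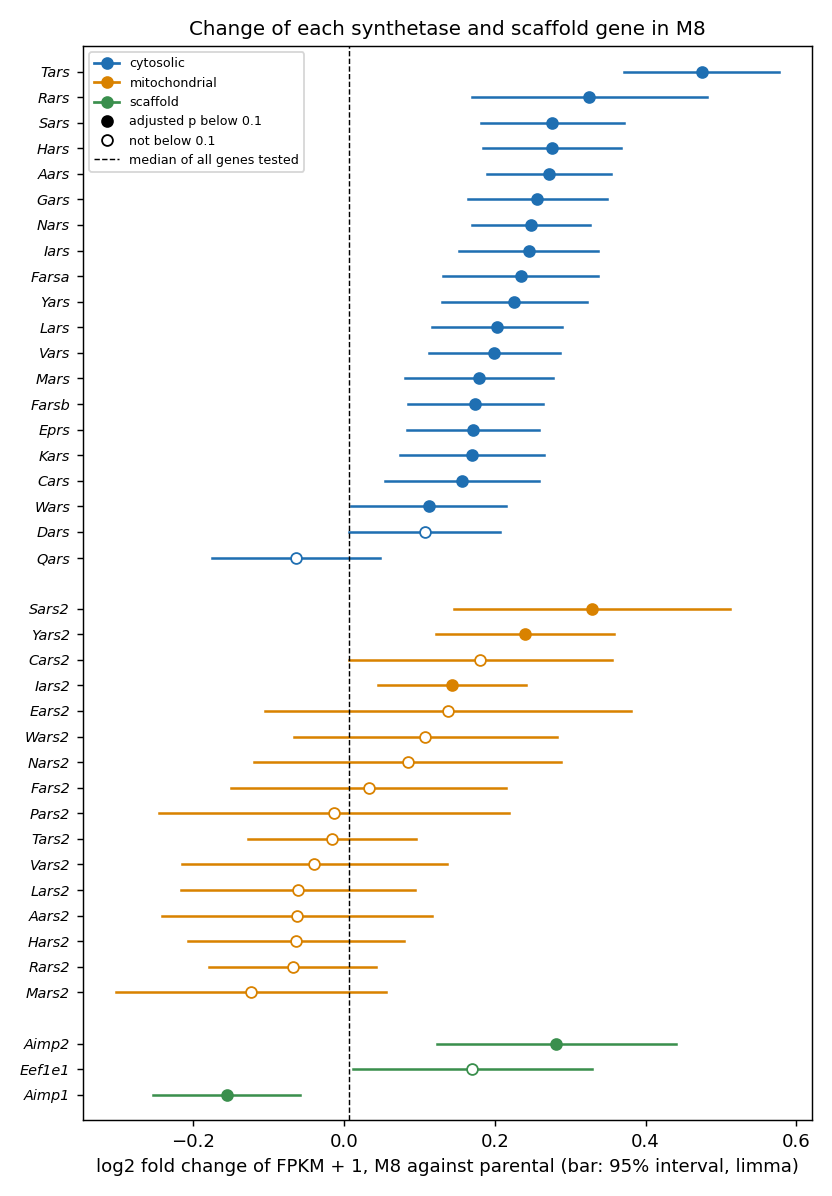
Log2 fold change of FPKM + 1 in M8 against parental cells for the 39 members (points, filled where the limma adjusted p was below 0.1), with 95% intervals as bars and the median of all genes tested as a dashed line. All cytosolic points except Qars lie to the right of the dashed line, and the mitochondrial points scatter on both sides, from -0.12 (Mars2) to 0.33 (Sars2).

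Tars, the threonyl-tRNA synthetase (chr15:11383663-11399658, minus strand), showed the largest difference of the 39. Its level was 132.9, 123.1 and 134.5 FPKM in the parental samples against 184.5, 183.9 and 175.1 FPKM in the M8 samples. The groups were far apart, with the lowest M8 sample well above the highest parental one. The log2 fold change was 0.47 (SE 0.046, 95% interval 0.37 to 0.58, adjusted p = 0.00026, limma), a ratio of mean levels of 1.39. Under quantile normalization the log2 fold change of Tars was 0.38, and that of Sars2 was slightly larger (0.39).

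Rars, the arginyl enzyme, came next among the cytosolic genes. Its samples had 149.6, 125.9 and 153.1 FPKM in parental cells against 176.4, 185.9 and 173.8 FPKM in M8. The second parental sample was low, and the groups did not overlap. The log2 fold change was 0.33 (SE 0.069, adjusted p = 0.0084), the SE being the widest of the cytosolic set. Without the second parental sample the log2 fold change of Rars was 0.24, and Sars (0.29), Aars (0.28) and others stood above it.

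Sars, Hars, Aars and Gars rose by a log2 fold change of 0.26 to 0.28. Sars, the seryl enzyme, moved from 181.3, 191.1 and 188.3 FPKM to 235.5, 226.0 and 218.5 FPKM (adjusted p = 0.0020). Hars, the histidyl enzyme, moved from 92.3, 90.4 and 97.4 FPKM to 114.1, 113.5 and 112.0 FPKM (adjusted p = 0.0017). Neither gene had an M8 sample within the parental range. Hars and its mitochondrial partner Hars2 lie head to head on chromosome 18 and share 4 bases in the annotation, and Hars2 did not pass the test (12.9 ± 0.874 against 12.3 ± 0.675 FPKM, adjusted p = 0.49). For Aars, which charges alanine, the parental values of 210.2, 210.6 and 204.6 FPKM stood against 257.9, 250.1 and 247.9 FPKM in M8 (adjusted p = 0.0012). Gars, for glycine, had 249.8, 256.0 and 265.3 FPKM against 317.1, 306.1 and 298.4 FPKM (adjusted p = 0.0025).

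The asparaginyl enzyme Nars, the highest cytosolic member, had the smallest SE of the 39. Its values were 310.9, 310.6 and 314.9 FPKM in parental cells against 374.8, 366.1 and 371.3 FPKM in M8, a log2 fold change of 0.25 (SE 0.035, adjusted p = 0.0014). The enzymes for the branched-chain amino acids isoleucine, leucine and valine all rose. Iars went from 98.0 ± 2.25 to 116 ± 3.97 FPKM (log2 fold change 0.24, adjusted p = 0.0029), Lars from 188 ± 2.70 to 216 ± 6.73 FPKM (0.20, adjusted p = 0.0051) and Vars from 102 ± 2.37 to 117 ± 2.77 FPKM (0.20, adjusted p = 0.0057). The tyrosyl enzyme Yars, which also has a known role outside translation as a secreted fragment, rose from 36.6 ± 1.15 to 43.0 ± 0.979 FPKM (0.23, adjusted p = 0.0051). The alpha and beta subunits of the phenylalanyl enzyme both rose, Farsa from 39.1 ± 1.97 to 46.1 ± 0.470 FPKM (0.23, adjusted p = 0.0059) and Farsb from 47.1 ± 1.30 to 53.2 ± 0.490 FPKM (0.17, adjusted p = 0.011). The ratio of Farsa to Farsb was 0.831 ± 0.0658 in parental cells and 0.866 ± 0.0112 in M8, and the values overlapped (p = 0.4, exact two-sided permutation test of the log2(FPKM + 1) difference, n = 3 each).

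The glutamyl-prolyl enzyme Eprs rose from 152 ± 4.13 to 171 ± 3.83 FPKM (log2 fold change 0.17, adjusted p = 0.011). The lysyl enzyme Kars rose from 125 ± 5.27 to 141 ± 3.03 FPKM (0.17, adjusted p = 0.017). The methionyl enzyme Mars, which overlaps the stress gene Ddit3 in the annotation, rose from 78.5 ± 3.65 to 88.9 ± 1.31 FPKM (0.18, adjusted p = 0.015). The calls of Eprs, Kars and Mars were lost under upper-quartile scaling (0.083 to 0.093) and under quantile normalization (0.075 to 0.089), and that of Farsb under the former (0.089). The cysteinyl enzyme Cars rose from 80.8 ± 4.29 to 90.1 ± 1.36 FPKM (0.16, adjusted p = 0.031), a call that was lost under upper-quartile scaling (0.070, adjusted p = 0.23), under quantile normalization (0.070, adjusted p = 0.23) and without the first M8 sample (0.15, adjusted p = 0.10). The tryptophanyl enzyme Wars was the least secure call: 136.2, 146.4 and 146.2 FPKM in the parental samples stood close to 161.2, 153.5 and 149.0 FPKM in M8 (0.11, adjusted p = 0.096), and the call was lost in 11 of 16 alternative settings.

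Dars and Qars were the cytosolic enzymes that did not pass. The aspartyl enzyme Dars had 44.8, 47.97 and 45.4 FPKM in parental cells against 50.01, 48.03 and 51.0 FPKM in M8, with a log2 fold change of 0.11 and an adjusted p of 0.101, next to the threshold, and it was called higher without the second parental sample (0.14, adjusted p = 0.076). The glutaminyl enzyme Qars had 39.9, 41.7 and 37.5 FPKM against 38.6, 36.6 and 38.6 FPKM, with overlapping groups. Its log2 fold change was -0.06 (95% interval -0.18 to 0.048, adjusted p = 0.37), and the upper bound of that interval lay below the lowest fold change called in the cytosolic set, 0.11. Under upper-quartile scaling Qars was called lower (-0.15, adjusted p = 0.074).

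**Figure D2:**
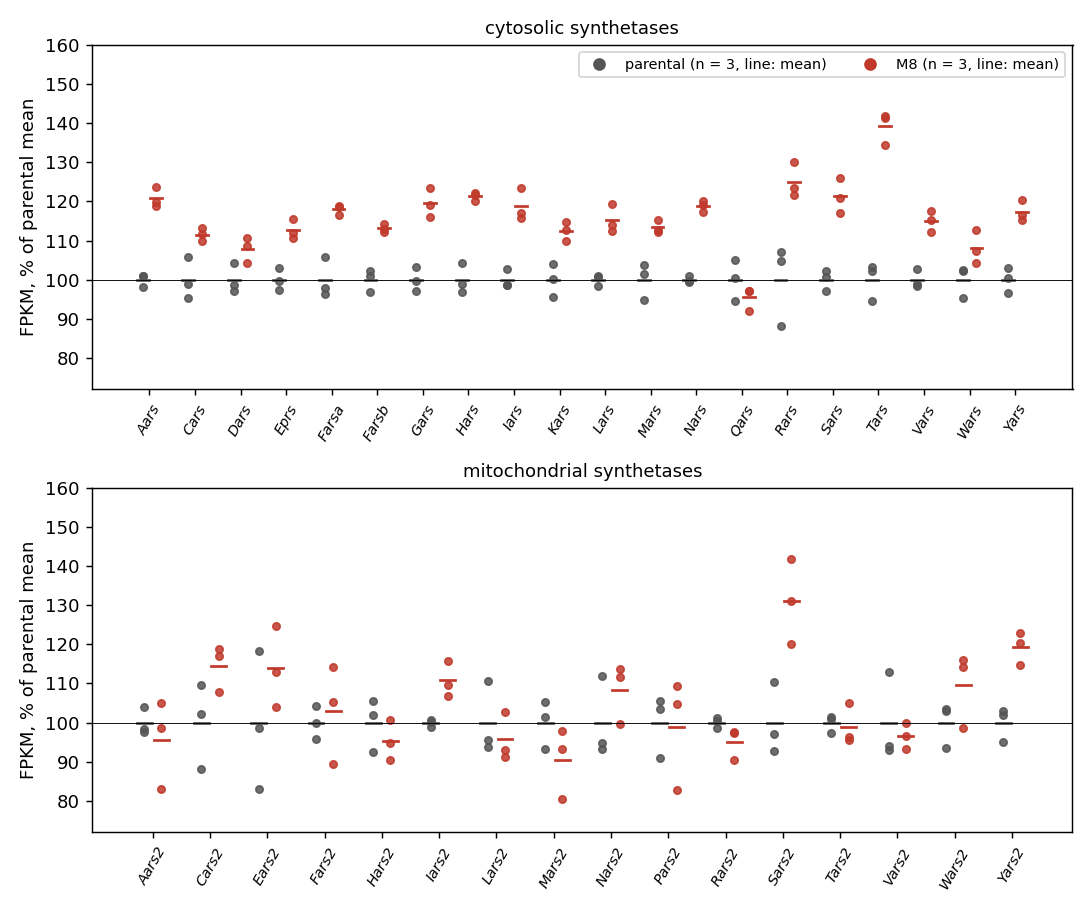
FPKM of each cytosolic (upper panel) and mitochondrial (lower panel) synthetase in each of the 6 samples, as a percent of that gene's parental mean, with short lines at the group means (n = 3 each). In the upper panel the red M8 points lie above the grey parental points for all genes but Qars, and in the lower panel they do so for Iars2, Sars2 and Yars2 only.

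Split by structural class, 9 of 10 class I and 9 of 10 class II cytosolic enzymes rose, with median log2 fold changes of 0.19 and 0.25. Under upper-quartile scaling 5 of class I and 7 of class II rose, and under quantile normalization 5 and 8. The 13 enzymes often listed as Atf4 targets all rose, with a median of 0.23, and of the other 7 cytosolic enzymes 5 rose, with a median of 0.17. Under upper-quartile scaling 9 of the 13 and 3 of the 7 rose, with Qars lower among the latter, and under quantile normalization 9 and 4 rose. These lists differ in level, with a median FPKM of 156 and 50.2, and 41.7% of all tested genes at 100 FPKM or more and 36.3% of those at 30 to 100 FPKM were called higher. Added together, the cytosolic synthetases made up 2507 ± 37.4 FPKM in parental cells against 2955 ± 56.3 FPKM in M8 (SD, n = 3 each), a ratio of 1.18. As a share of all FPKM this was 0.41% and 0.471%. The median shift of the 20 genes against the parental mean was 0.22, 0.21 and 0.20 in the M8 samples, and it lay between -0.011 and 0.027 in the parental samples.

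The share of genes called also varied with their level. At a mean of 1 to 5 FPKM 5.51% of all tested genes were called higher, at 5 to 30 FPKM 17.5%, at 30 to 100 FPKM 36.3% and at 100 FPKM or more 41.7%, bounds that were chosen after the values were seen. In the highest range 13 of 13 cytosolic enzymes rose, and in the range from 30 to 100 FPKM 5 of 7 did. Among the mitochondrial enzymes 0 of 4 rose in the lowest range, 2 of 10 in the next, and 1 of 1 (Iars2) and 0 of 1 (Lars2) in the upper ranges. The median log2 fold change of all genes was -0.072 under upper-quartile scaling and -9.3e-04 under quantile normalization.

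The multisynthetase complex was not uniform. Of its 11 genes, 7 rose (63.6%, beside 21.2% of all genes tested and 36.3% to 41.7% of those at 30 FPKM or more), 1 fell and 3 did not pass, with a median log2 fold change of 0.17. Under upper-quartile scaling 4 rose and 2 fell, and under quantile normalization 4 rose and 1 fell. Of the 12 cytosolic synthetases outside the complex, 12 rose, with a median of 0.24, while 9 did under upper-quartile scaling and 10 under quantile normalization. The enzymes of the complex that rose were Rars, Iars, Lars, Mars, Eprs and Kars, and those that did not pass were Dars and Qars, both given above. A test of the difference between complex and free enzymes was not made.

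The 3 scaffold genes went in different directions. Aimp1, which binds the arginyl and glutaminyl enzymes into the complex and is also released as a cytokine, fell from 162.9, 153.7 and 169.5 FPKM in parental cells to 145.5, 144.2 and 145.9 FPKM in M8. The log2 fold change was -0.16 (SE 0.043, adjusted p = 0.025), and no M8 value reached the parental range. It was the only member called lower. Aimp2, the core scaffold, rose from 53.1, 54.1 and 60.9 FPKM to 74.8, 67.4 and 62.9 FPKM (0.28, SE 0.071, adjusted p = 0.017), with the third M8 sample just above the highest parental one. The remaining scaffold, Eef1e1, had 42.9, 39.3 and 49.11 FPKM against 49.99, 48.07 and 49.45 FPKM, overlapped between the lines and did not pass (0.17, adjusted p = 0.101). Eef1e1 was called higher in 4 alternative settings, which were the one without the third parental sample (0.25, adjusted p = 0.0096), the replicate block (adjusted p = 0.069), a pseudocount of 0.1 and a mean FPKM of at least 5. In the annotation Aimp1 (chr3:132660498-132684390) overlaps Tbck, and Aimp2 (chr5:143902704-143909839) overlaps Eif2ak1.

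Of 16 mitochondrial synthetases, 3 rose and 0 fell, a share of 18.8% beside the 21.2% of all genes tested, and the median log2 fold change was 0.0096, with 8 genes above 0 and 8 below. This median was -0.058 under upper-quartile scaling, where 2 rose and 2 fell, and 0.063 under quantile normalization, where 3 rose and 1 fell. Sars2, for serine, had 5.25, 4.41 and 4.62 FPKM in parental cells against 6.75, 6.24 and 5.72 FPKM in M8 (0.33, SE 0.081, adjusted p = 0.016). Yars2, for tyrosine, had 13.6, 14.8 and 14.6 FPKM against 17.3, 17.6 and 16.5 FPKM (0.24, SE 0.052, adjusted p = 0.0094). In both genes every M8 sample was above every parental sample. Iars2, for isoleucine, had 39.3, 38.8 and 39.5 FPKM against 43.0, 45.5 and 41.9 FPKM (0.14, SE 0.044, adjusted p = 0.036), and this call was lost in 4 of 16 alternative settings, one of which left out the second M8 sample (0.11, adjusted p = 0.14). Iars2 overlaps Rab3gap2 in the annotation.

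The other 13 mitochondrial enzymes did not pass the test. Their 95% intervals on the log2 scale ran from -0.30 to 0.38 in all. In 7 of them (Aars2, Hars2, Lars2, Mars2, Rars2, Tars2 and Vars2) the interval ended below the cytosolic median of 0.21. In the other 6 (Cars2, Ears2, Fars2, Nars2, Pars2 and Wars2) it reached that value, so that a difference of the cytosolic size was not excluded there. Both the intervals and this median depend on the scaling. Under quantile normalization the cytosolic median was 0.12 and the mitochondrial median 0.063, and intervals were not compared there. The SE of the mitochondrial genes had a median of 0.078, against 0.042 for the cytosolic genes.

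Among these, Lars2, the member with the highest FPKM, had 506.8, 598.9 and 516.5 FPKM in parental cells against 493.3, 555.7 and 503.5 FPKM in M8, with the second sample of each line the highest (-0.06, adjusted p = 0.54). Tars2, the partner of the cytosolic gene that rose most, had 26.8, 25.8 and 26.9 FPKM against 27.8, 25.5 and 25.3 FPKM (-0.02, adjusted p = 0.83). For Rars2, which charges arginine, the M8 samples, at 16.2, 16.3 and 15.1 FPKM, stayed under the parental ones, at 16.4, 16.8 and 16.7 FPKM, but the difference of -0.07 did not pass (adjusted p = 0.33). Cars2 lay nearest the threshold, at 9.15, 9.83 and 7.91 FPKM against 9.67, 10.6 and 10.5 FPKM (0.18, adjusted p = 0.11). It was called higher without the second parental sample (0.24, adjusted p = 0.061) and under quantile normalization (0.20, adjusted p = 0.077). Of the low mitochondrial enzymes, Mars2 went from 5.77 ± 0.356 to 5.22 ± 0.515 FPKM (-0.12, adjusted p = 0.28), Wars2 from 4.65 ± 0.259 to 5.10 ± 0.446 FPKM (0.11, adjusted p = 0.32) and Ears2 from 2.28 ± 0.403 to 2.59 ± 0.234 FPKM (0.14, adjusted p = 0.37), all with overlapping samples. Aars2, Fars2, Nars2, Pars2 and Vars2 lay between -0.06 (Aars2) and 0.08 (Nars2), each overlapping between the lines. Summed FPKM of the mitochondrial set was 705 ± 52.3 in parental cells and 690.01 ± 36.9 in M8, and without Lars2 it was 164 ± 1.73 and 173 ± 4.90.

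Where both compartments have an enzyme for the same amino acid, the ratio of cytosolic to mitochondrial FPKM was taken within each sample, for 17 pairs. In 8 pairs all 3 M8 ratios lay above the parental ratios (Aars, Hars, Lars, Mars, Rars, Tars and Vars with their partners, and Farsa with Fars2), in 0 pairs below, and in 9 pairs the ratios overlapped. The test was made on the difference of log2(FPKM + 1) between the partners, on which Nars with Nars2 also separated, so that 9 pairs did. With 3 samples against 3 the exact two-sided permutation test cannot go below p = 0.1, and adjusted over the 17 pairs the value for these 9 was 0.189. The ratio of Tars to Tars2 was 4.97, 4.77 and 5.003 in parental cells and 6.64, 7.21 and 6.92 in M8. The ratio of Hars to Hars2 was 7.25 ± 0.290 in parental cells and 9.23 ± 0.531 in M8 (SD, n = 3). For serine and tyrosine, whose mitochondrial enzymes also rose, the ratios overlapped: Sars over Sars2 was 39.5 ± 4.53 against 36.4 ± 1.66 and Yars over Yars2 was 2.56 ± 0.154 against 2.51 ± 0.0762. FPKM was higher for the cytosolic enzyme in every pair except Lars with Lars2. The ratio of Lars to Lars2 was 0.349 ± 0.0358 in parental cells and 0.419 ± 0.0372 in M8. How reads at Lars2 were assigned is not given in the sources used here.

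**Figure D3:**
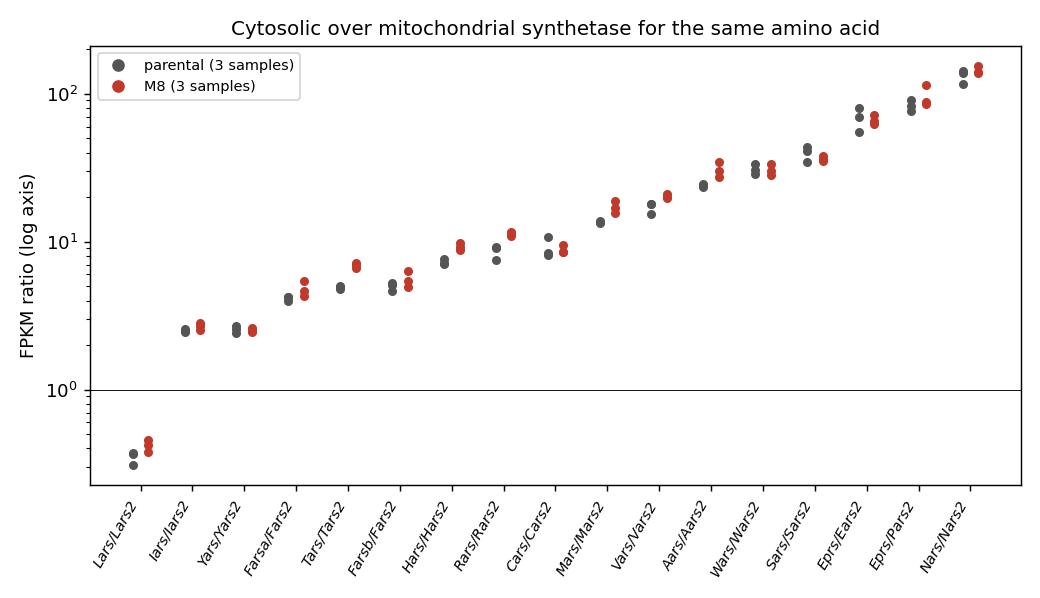
Ratio of cytosolic to mitochondrial FPKM for the same amino acid in each sample (log axis, 3 parental and 3 M8 points per pair), ordered by the parental mean, with a line at 1. The M8 points stand above the parental points in 8 of 17 pairs, most widely for Tars over Tars2, and only Lars over Lars2 lies below 1.

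Genes around the synthetases were taken from lists of the same pathway. Of 15 genes of amino acid sensing and eIF2, 7 rose (46.7%) and 0 fell, and the median was 0.11. The sensor Eif2ak4, named here after its values were seen, had 8.33, 8.81 and 8.36 FPKM in parental samples and 7.92, 7.10 and 8.04 FPKM in M8, lower without overlap, and did not pass (-0.13, adjusted p = 0.15). For this and the lists that follow, the shares over all genes tested were 21.2% higher and 16.5% lower, with a median of 0.0069. Atf4, the transcription factor of this response, had 560.6, 543.2 and 567.7 FPKM in parental cells against 649.5, 680.2 and 639.3 FPKM in M8, without overlap (0.24, SE 0.041, adjusted p = 0.0033). Under quantile normalization the Atf4 difference was 0.12 (adjusted p = 0.059). The eIF2 kinase Eif2ak2, which responds to double-stranded RNA, rose by 0.31 (SE 0.044, adjusted p = 0.0014), and Eif2b1, a subunit of the eIF2 exchange factor, by 0.22 (SE 0.064, adjusted p = 0.032), the latter call being lost without the first M8 sample and under upper-quartile scaling.

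The steps that make tRNA ready for charging were mixed. Of 21 tested genes of tRNA processing and export (22 listed), 7 rose (33.3%) and 2 fell, with a median of 0.11. Xpot, the nuclear export receptor of tRNA, had 49.6, 47.4 and 47.6 FPKM in parental cells against 59.2, 56.7 and 55.8 FPKM in M8 (0.24, SE 0.042, adjusted p = 0.0034). Pop1, Pop7 and Rpp21 encode subunits of RNase P, which trims the leader of precursor tRNA, and they did not move together. Pop1 rose from 3.46, 3.70 and 3.38 FPKM to 6.16, 6.06 and 6.38 FPKM (0.67, SE 0.066, adjusted p = 0.00029) and Pop7 rose by 0.43 (SE 0.040, adjusted p = 0.00024). Rpp21 fell from 24.8, 25.3 and 26.7 FPKM to 16.3, 19.8 and 19.7 FPKM (-0.44, SE 0.074, adjusted p = 0.0029).

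Of 27 tested tRNA modification genes (28 listed), 11 rose (40.7%) and 0 fell, with a median of 0.13. The largest differences were those of Adat3, a subunit of the tRNA adenosine deaminase (0.43, SE 0.11, adjusted p = 0.020), Wdr4, the partner of the tRNA guanine methyltransferase Mettl1 (0.40, SE 0.052, adjusted p = 0.0010), and Trmt6, a subunit of a tRNA adenine methyltransferase (0.33, SE 0.048, adjusted p = 0.0016). Of 9 tested genes for tRNA editing and synthetase-like proteins (10 listed), 2 rose and 0 fell, a share of 22.2% that is near the 21.2% of all genes, with a median of 0.035. The largest difference was that of Ptrhd1 (0.40, SE 0.11, adjusted p = 0.025). Pstk, the kinase that acts on seryl-tRNA for selenocysteine, did not pass (-0.13, adjusted p = 0.33).

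Downstream of charging, 3 of 9 cytosolic elongation and release factors rose (33.3%) and 0 fell, and the median was -0.0059. The median level of this list was 472 FPKM, and 41.7% of all tested genes at 100 FPKM or more were called higher. Those that rose were Eif5a (0.31, SE 0.039, adjusted p = 9.5e-04) and the release factors Etf1 (0.30, SE 0.046, adjusted p = 0.0020) and Gspt1 (0.20, SE 0.048, adjusted p = 0.015), the last of these calls being lost under upper-quartile scaling (0.11). Of 17 genes of mitochondrial translation and tRNA amidation, 2 rose (11.8%, below the share of all genes) and 2 fell, with a median of 0.034. The mitochondrial initiation factor Mtif2 fell from 11.3, 12.0 and 11.7 FPKM to 9.36, 9.08 and 9.36 FPKM (-0.30, SE 0.052, adjusted p = 0.0033). The elongation factor Tsfm rose by 0.18 (adjusted p = 0.022), a call that was lost under upper-quartile scaling and under quantile normalization, where the lower of the values was 0.098. Trmu, which thiolates mitochondrial tRNA, fell by 0.22 on the log2 scale (adjusted p = 0.082), a call that was lost in 9 of 16 alternative settings, among them 5 of the 6 that left out 1 sample.

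**Figure D4:**
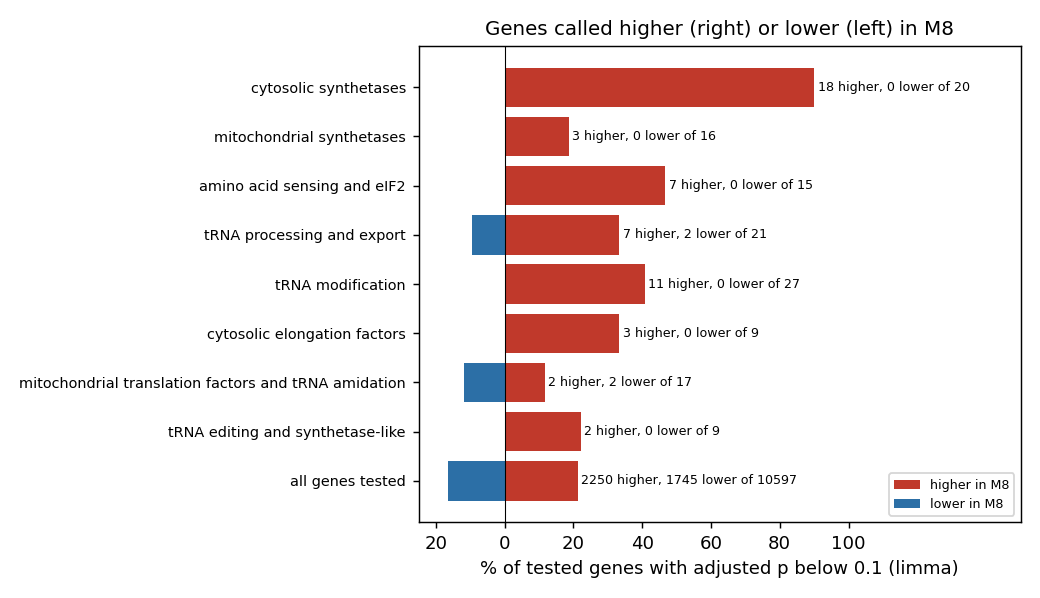
Percent of tested genes called higher (bars to the right) or lower (bars to the left) in M8 by limma at an adjusted p below 0.1, for the synthetases, the lists of the same pathway and all genes tested, with counts beside the bars. The bar of the cytosolic synthetases reaches 90.0% (18 of 20), that of the mitochondrial synthetases 18.8%, and that of all genes tested 21.2%.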

How the data were processed

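RNA from CT26.mMR1 and M8 cells (3 samples each) was sequenced as single reads on poly(A)-selected stranded libraries. The authors mapped them with TopHat to the mm10 genome, and the deposited values are FPKM computed by Cufflinks. The submitters' processing notes name TopHat2 2.1.1, Bowtie2 2.2.8, SAMtools 0.1.18 and Cuffdiff 2.2.1. The gene annotation and the strand setting are not given in the sources used here, so overlapping genes may share reads. FPKM values keep no counts, and absolute depth is unknown. The study compared read counts, which were not used here, at an FDR below 0.1, and that threshold was kept.

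Values were tested as log2(FPKM + 1) with limma 3.58.1 in R 4.3.3 (lmFit, eBayes with trend) with the line as the only term. The 10597 genes whose mean reached 1 FPKM were tested, and p-values were adjusted by Benjamini-Hochberg over all of them. Fold changes are on that scale and understate changes of low genes. Paired enzymes were compared by exact permutation of the difference of their log2(FPKM + 1). The study calls the samples of a line biological replicates, but whether they came from separate cultures is not given in the sources used here, so p-values measure only the spread between these samples, whose median coefficient of variation was 5.62% in parental cells and 4.42% in M8. Members and lists were chosen with earlier results of these data known. All members are named, and from each further list the 3 tested genes with the largest difference, with Atf4 and Xpot. Some genes that this rule covers are not reported here. Gene positions and promoters came from RefSeq (GRCm38.p6), read with Python 3.11.15 and pandas 2.3.3, and Mars was matched as Mars1. Alternatives were the pseudocount, the filter, scaling, the trend, the threshold, a replicate block and leaving out each sample.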

Additional observations from a re-analysis of the deposited data

How the results depend on the processing

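Over 16 alternative settings, 570 of 620 values of single members kept their direction and their side of the threshold, 25 lost the call, 12 gained one and 13 changed sign. Under upper-quartile scaling 1157 genes were called higher and 3239 lower, 1 cytosolic (Qars) and 2 mitochondrial enzymes (Mars2 and Rars2) were called lower, the medians were 0.13 for cytosolic and -0.058 for mitochondrial enzymes, and Fars2 was at -0.047. Under quantile normalization 1 mitochondrial enzyme (Lars2) was called lower, the medians were 0.12 and 0.063, Pars2 was at 0.073 and Vars2 at 0.016. With TPM the cytosolic median was 0.18 and Fars2 was at -0.0013. With a mean FPKM of at least 5 the mitochondrial median was -0.028 over 12 genes. The cause of these shifts was not tested.

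When each sample was left out in turn, 16 to 18 cytosolic and 2 to 4 mitochondrial enzymes were called higher, the cytosolic median stayed between 0.20 and 0.22, the mitochondrial median ran from -0.0080 to 0.062, and 1157 (without the first M8 sample) to 1672 genes were called lower. Members whose sign changed were Lars2 (-0.11 to 0.015), Pars2 (-0.063 to 0.065), Vars2 (-0.081 to 0.038), Fars2 (-0.038 to 0.12), Tars2 (-0.058 to 0.0075) and Aars2 (-0.13 to 0.025), none of them called.

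Samples with the same replicate number showed little shared deviation (r = 0.10, -0.11 and -0.033 across genes, which are not independent). With 3 samples per line these values cannot show whether same-numbered samples were prepared together, and the labels do not say. With a replicate block 2171 genes were called higher and 1688 lower, with 17 cytosolic and 3 mitochondrial enzymes called higher, Wars losing its call and Eef1e1 gaining one (adjusted p = 0.069). The SE was up to 0.11 among the mitochondrial enzymes below 5 FPKM. FPKM values keep no counts from which the counting error could be read, so what depth adds to the SE was not tested.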
